A study of Mus musculus with 6 samples.

Results

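Lin28a, Lin28b, Hmga1, Hmga2, Igf2bp1, Igf2bp2 and Igf2bp3 belong to 3 gene families known as oncofetal growth regulators, genes that are active in embryonic tissue and again in many tumours. They were taken by their Ensembl symbols, and all 7 were found among the 55536 genes counted in the CAD line. CAD is a mouse catecholaminergic cell line of the central nervous system. All libraries came from this line, which the labels describe as male, of C57BL/6 x DBA/2 background and transformed with simian virus 40. In the undifferentiated group the cells proliferated in medium with 8% fetal bovine serum and no dexamethasone. In the dexamethasone group the cells were held for 5 days in 100 µM dexamethasone, a synthetic glucocorticoid, with 1% serum. The steroid and the lower serum changed together, so their effects cannot be told apart, and each difference below is of the combination. Each group had 3 mRNA libraries. The samples are labelled as independent, with no word on whether separate cultures were grown, so the replicate spread behind each p-value may be technical only.

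Lin28a and Lin28b encode RNA-binding proteins that hold back the maturation of let-7, a family of microRNAs that accumulates as cells differentiate. Mature let-7 in turn represses mRNAs that carry matches to its seed in the 3′ untranslated region (UTR), and the Lin28, Hmga2 and Igf2bp mRNAs are textbook targets. Hmga1 and Hmga2 encode chromatin proteins that bind AT-rich DNA, and the Igf2bp proteins bind mRNAs, among them those of Igf2, Myc and Actb, and influence their stability, location and translation.

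The let-7 sequences and the letters they pair with are shown first because they are what the families have in common outside the choice of members. Of 11 mature mouse let-7 family sequences in RefSeq (GRCm38.p6), 10 share the seed GAGGUAG at bases 2 to 8, in capitals below. The exception is let-7j, which ends its seed in another base.
let-7a-5p: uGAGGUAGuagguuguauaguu
let-7d-5p: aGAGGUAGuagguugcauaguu
let-7g-5p: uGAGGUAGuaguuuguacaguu
let-7i-5p: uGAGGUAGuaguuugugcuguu
miR-98-5p: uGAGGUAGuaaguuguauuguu
let-7j: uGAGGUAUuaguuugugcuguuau

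The complement of the shared seed, CTACCTC, occurred at least once in the annotated 3′ UTR of each of the 7 genes. Among all 21028 protein-coding genes with an annotated 3′ UTR, 9.02% held a match. Lin28a had 2 matches in 2775 bases and Lin28b had 4 in 4445 bases. Hmga1 had 1 match in 1183 bases, and Hmga2 had 4 in 3014 bases. Igf2bp1 had 4 matches in 6337 bases, Igf2bp2 had 1 in 1784 bases and Igf2bp3 had 1 in 2119 bases. Of genes with a 3′ UTR of like length, 2.06% had at least as many matches as Lin28a, 0.157% as many as Lin28b, 0.0890% as many as Hmga2 and 0.178% as many as Igf2bp1. For the members with a single match, the share of genes of like length with a match was 8.05% (Hmga1), 12.0% (Igf2bp2) and 13.2% (Igf2bp3). The sites of both Lin28 genes and the first site of each other gene are printed in the direction of the mRNA, with the seed match in capitals.
Lin28a site 1: cacagcctgttgaaCTACCTCat
Lin28a site 2: agatcgccacaaacCTACCTCac
Lin28b site 1: cccgggcgggaagtCTACCTCat
Lin28b site 2: atacttgttagtaaCTACCTCtg
Lin28b site 3: tttacagcacatggCTACCTCcc
Lin28b site 4: aatgatggcaccgaCTACCTCtt
Hmga1 site 1: cctctgttcacaaaCTACCTCtg
Hmga2 site 1: ccgacattcaatttCTACCTCag
Igf2bp1 site 1: ctgtgcgaagtaaaCTACCTCaa
Igf2bp2 site 1: cacacaaataaaagCTACCTCag
Igf2bp3 site 1: gcatttttactcaaCTACCTCag

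These windows lie in exonic 3′ UTR sequence of GRCm38. The Lin28a sites are at chr4:134005188-134005210 and chr4:134004550-134004572, on the minus strand. The Lin28b sites are at chr10:45381021-45381043, chr10:45378647-45378669, chr10:45378475-45378497 and chr10:45377059-45377081, also on the minus strand. The Hmga1 site is at chr17:27563278-27563300 on the plus strand, and the Hmga2 site at chr10:120364223-120364245 on the minus strand. The Igf2bp sites, all on the minus strand, are at chr11:95961777-95961799 for Igf2bp1, chr16:22059472-22059494 for Igf2bp2 and chr6:49086786-49086808 for Igf2bp3. An A directly after the match, which favours let-7 binding in general, followed both Lin28a matches, 1 of the 4 Lin28b matches, 1 of the 4 in Hmga2, 3 of the 4 in Igf2bp1 and the single matches of Igf2bp2 and Igf2bp3. The Hmga1 match had none. A match is a description of letters, and let-7 binding was not measured.

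**Figure D1:**
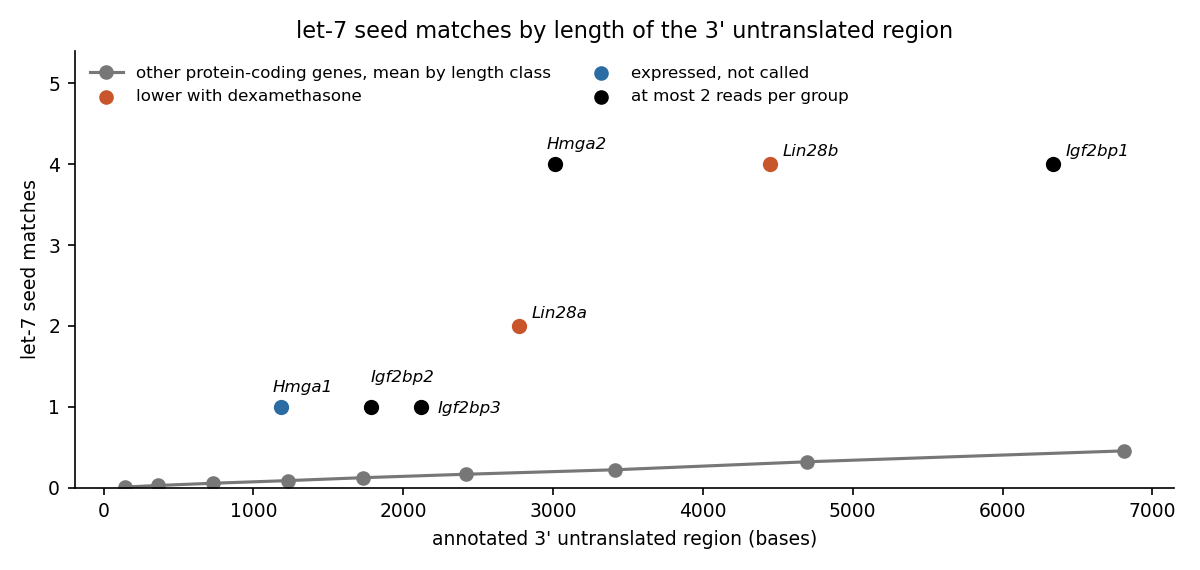
Matches to the let-7 seed (y axis) against the length of the annotated 3′ UTR in bases (x axis), with 1 point per growth gene and, in grey, the mean of all other protein-coding genes in each length class. The grey line reaches at most 0.457 matches, so any gene with 1 match lies above it, as each of the 7 genes does. Lin28b, Hmga2 and Igf2bp1 have 4 matches each.

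Library totals ran from 6411105 to 8757992 counted reads, and 3 reads equal 0.342 to 0.468 CPM (counts scaled to a common library total). Of the 12664 genes that passed the filter on low counts, 5106 were called higher (40.3%) and 4891 lower (38.6%) in dexamethasone at an adjusted p under 0.05 (edgeR's quasi-likelihood test, Benjamini-Hochberg adjustment), 78.9% in either direction. The median log2 fold change of all tested genes was 0.017. In 79.9% of tested genes the groups did not overlap, with dexamethasone higher in 41.0% and lower in 38.9%. Of 11 tested markers of catecholaminergic cells, the labelled type, 5 were higher and 5 lower, and they did not move as 1 group. Dbh, which makes noradrenaline, averaged 165 ± 3.07 CPM (SD, n = 3) in undifferentiated cells and 12.5 ± 0.354 CPM in dexamethasone. Th, which makes L-DOPA, averaged 4.60 ± 0.674 and 9.52 ± 1.05 CPM. Chgb, a protein of secretory granules, rose 9.73-fold. Ddc, which makes dopamine, had 76 reads in undifferentiated cells and 12 in dexamethasone. The vesicle transporter Slc18a1 rose 2.52-fold, from 16.6 ± 1.08 to 42.0 ± 3.04 CPM (edgeR adjusted p = 7.01e-13). Slc18a2, another vesicle transporter, had 3 and 4 reads in the groups and was not tested. Of 8 markers of proliferating cells, all 8 were lower in dexamethasone, and their summed level went from 3602 to 3741 CPM in undifferentiated libraries to 189 to 211 CPM. In bulk samples fewer cells of a type and less RNA per cell cannot be told apart.

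Both Lin28 genes were lower in dexamethasone, by nearly the same factor. Hmga1 was not called, and Hmga2 and the Igf2bp genes had at most 2 reads in a group. Thus 3 of the 7 genes could be tested, of which 2 were called lower (background 38.6%) and 0 higher (background 40.3%). The other 4 failed the filter on low counts in both groups alike.

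Lin28a (ENSMUSG00000050966) spans chr4:134003330-134018841 on the minus strand of GRCm38. It had 401, 396 and 341 reads in undifferentiated libraries 1, 2 and 3 and 170, 185 and 127 in the dexamethasone libraries. Scaled by library, these were 56.7, 50.5 and 55.4 CPM against 18.8, 20.2 and 18.9 CPM. The lowest undifferentiated library lay well above the highest dexamethasone library, so the groups did not overlap. The mean fell from 54.2 ± 3.27 to 19.3 ± 0.751 CPM (SD, n = 3), which is 2.80-fold lower, or -1.48 on the log2 scale (SE 0.086; edgeR, adjusted p = 6.82e-15). The protein of Lin28a is mostly cytoplasmic, where it binds the let-7 precursor and brings in the enzymes that add a uridine tail to it.

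Lin28b (ENSMUSG00000063804) spans chr10:45376620-45486395 on the minus strand, and its protein is known to bind primary let-7 transcripts in the nucleus as well. It had 797, 1054 and 775 reads in the undifferentiated libraries and 398, 395 and 317 in dexamethasone. These were 113, 134 and 126 CPM against 44.1, 43.1 and 47.2 CPM. Again every undifferentiated library was above every dexamethasone library, as in 38.9% of all tested genes. The mean fell from 124 ± 10.9 to 44.8 ± 2.16 CPM (SD, n = 3), which is 2.79-fold lower, or -1.48 on the log2 scale (SE 0.071; edgeR, adjusted p = 8.48e-17). Among all tested genes, 5.81% had a lower log2 fold change than Lin28a and 5.87% a lower one than Lin28b, so the 2 genes stood next to each other in the lower tail.

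Per kilobase of annotated exon the Lin28 genes were also alike in level. Lin28a had 13.6 ± 0.817 RPKM (CPM divided by exon length in kilobases) in undifferentiated cells and 4.83 ± 0.188 RPKM in dexamethasone. Lin28b had 13.7 ± 1.21 and 4.94 ± 0.239 RPKM. Both were above about 67% of tested genes in undifferentiated cells (67.2% for Lin28a, 67.4% for Lin28b) and above about 39% in dexamethasone (38.7% and 39.3%). The share of Lin28b in the summed level per kilobase was 46.7, 54.0 and 50.0% in the undifferentiated libraries and 50.8, 48.5 and 52.4% in dexamethasone. The ranges overlapped, and the means of 50.2 ± 3.65% and 50.6 ± 1.96% differed by 0.310 percentage points (exact permutation test, two-sided, p = 0.9, adjusted p = 0.9 over 5 such tests). With each library left out in turn the difference ran from -1.46 to 2.18 percentage points. This range is not a confidence interval, and it sets no limit on the size of a shift that 3 libraries per group could miss.

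**Figure D2:**
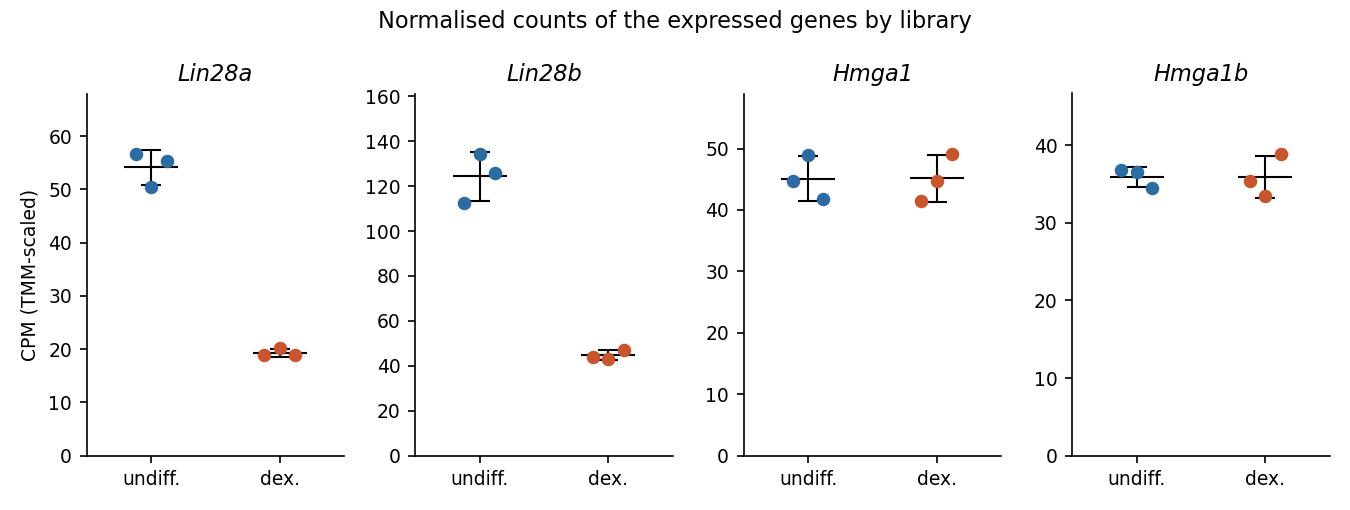
CPM scaled by library (y axes, each from 0) of Lin28a, Lin28b, Hmga1 and the single-exon copy Hmga1b in the 3 undifferentiated (blue) and 3 dexamethasone (orange) libraries, with the mean and SD in black. The Lin28 libraries separate by group, at 50.5 CPM or more against 20.2 or less for Lin28a and at 113 or more against 47.2 or less for Lin28b, and those of Hmga1 and Hmga1b overlap.

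Hmga1 (ENSMUSG00000046711), at chr17:27556497-27563674 on the plus strand, had 316, 384 and 257 reads in the undifferentiated libraries and 375, 411 and 330 in dexamethasone. These were 44.7, 48.9 and 41.7 CPM against 41.5, 44.8 and 49.1 CPM. The groups overlapped, with the highest and the lowest library both in dexamethasone. The mean was 45.1 ± 3.63 CPM in undifferentiated cells and 45.2 ± 3.82 CPM in dexamethasone (SD, n = 3), and the difference was -0.011 on the log2 scale (SE 0.082; edgeR, adjusted p = 0.904), or 0.091 with upper quartile factors and 0.11 with library totals alone. Per kilobase Hmga1 was the most abundant member, at 21.2 ± 1.71 and 21.2 ± 1.80 RPKM.

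Hmga1 has a near-identical copy, Hmga1b, a single-exon gene at chr11:120762794-120764419 that is distinct from the splice form of the same name. Of all stretches of 75 bases, the read length, in Hmga1 exons, 46.9% also occur in Hmga1b, and 84.0% of those of Hmga1b occur in Hmga1. Reads that align equally well to several places were left out of the counts, so the CPM and RPKM of each copy may be too low. Hmga1b averaged 35.9 ± 1.30 CPM in undifferentiated cells and 35.9 ± 2.73 CPM in dexamethasone, with a log2 fold change of -0.0095 (edgeR adjusted p = 0.922). The log2 ratio of Hmga1b to Hmga1 differed by -0.0030 between the groups (exact permutation test, two-sided, p = 0.9, adjusted p = 0.9). The groups overlapped in this ratio. With 3 libraries per group the test cannot give p under 0.1, so it could not have called a difference.

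Against Hmga1, the Lin28 genes were lower in every dexamethasone library. The log2 ratio of Lin28a to Hmga1 per kilobase was -0.57, -0.87 and -0.50 in undifferentiated libraries and -2.05, -2.06 and -2.29 in dexamethasone. That of Lin28b to Hmga1 was -0.76, -0.64 and -0.50 against -2.01, -2.15 and -2.15. The ratios fell 2.81-fold and 2.77-fold, with no overlap between the groups. This measure does not depend on how libraries are scaled. Each exact permutation test gave p = 0.1 (two-sided, adjusted p = 0.25 over 5 tests), which is the smallest p that 3 against 3 libraries allow.

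Hmga2, the member of the family most tied to embryonic growth and to let-7, was close to silent. At chr10:120361275-120476469, it had 0 reads in the undifferentiated libraries and 0, 1 and 1 in dexamethasone. A group total of 3 reads would be 0.0210 RPKM in undifferentiated cells and 0.0178 RPKM in dexamethasone. Its share of the Hmga family level was 0% in undifferentiated cells and 0.0571 ± 0.0503% in dexamethasone. These shares rest on 2 reads, too few for a difference to be detectable.

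The Igf2bp family was at the same floor. Igf2bp1, at chr11:95957163-96005940, had 0 reads in each of the 6 libraries. Igf2bp2, at chr16:22059009-22163299, had 1, 0 and 0 reads in undifferentiated cells and 1, 0 and 0 in dexamethasone. Igf2bp3, at chr6:49085223-49214957, had 0 reads in undifferentiated cells and 0, 0 and 1 in dexamethasone. A total of 3 reads over a group was between 0.0124 and 0.0192 RPKM for these genes. This is a reference level, not an upper confidence limit, and error other than counting is not covered. In undifferentiated cells Lin28a was 919-fold above this level for Igf2bp1, 703-fold above that for Igf2bp2 and 775-fold above that for Igf2bp3. Such low counts are common, since 37.7% of 22028 protein-coding genes had at most 2 reads over the 6 libraries.

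Shared sequence bears on these zeros only in part, because reads that could belong to several genes were not counted. Of the stretches of 75 bases in their exons, 0.190% for Igf2bp1, 0% for Igf2bp2 and 1.18% for Hmga2 occur in another gene. For Igf2bp3 the share was 17.8%, all of it with Malsu1, whose exons overlap 1529 bases of Igf2bp3 on the other strand. Counting was by strand, so this overlap alone would not leave a read uncounted. Most of the sequence of each silent gene was thus not shared with other annotated transcripts. Copies elsewhere in the genome were not searched. With the filter on low counts removed, Hmga2, Igf2bp2 and Igf2bp3 were not called either (edgeR adjusted p = 0.356, 0.946 and 0.493). With at most 2 reads in a group these tests could not have made a call, so they say nothing about a change.

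**Figure D3:**
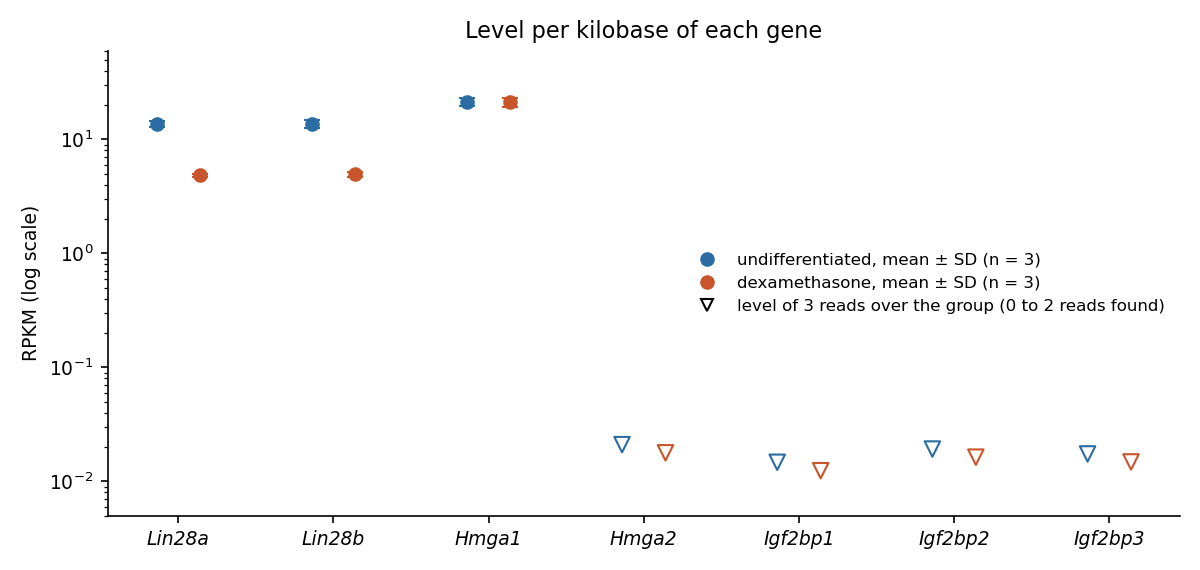
RPKM on a log axis for the 7 genes in undifferentiated (blue) and dexamethasone (orange) cells. Filled points are means with SD over 3 libraries, and open triangles mark the level that 3 reads over the group would give for the genes with 0 to 2 reads. Hmga1 is highest at 21.2 RPKM in both groups, the Lin28 genes go from near 13.6 to near 4.9 RPKM, and the triangles lie between 0.0124 and 0.0210 RPKM.

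The genes closest to each tested member in pattern were sought among 11422 protein-coding genes by the Euclidean distance of centred log2 CPM over the 6 libraries. Ppil1, a spliceosome component (distance 0.0286), and Cdk2ap1 (0.101) were closest to Lin28a, and were 2.81-fold and 2.79-fold lower in dexamethasone. The splicing factor Srsf10 (0.0870) was close to Lin28b and was 2.71-fold lower. Gtf2ird1 (0.0715) and Gm4779 (0.0928) were closest to Hmga1 and were not called (edgeR adjusted p = 0.851 and 0.414). Many genes share such patterns in a comparison of 2 groups, where 737 tested genes fell at least as much as Lin28a.

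Around Lin28 in the let-7 pathway, 6 of 19 tested genes of let-7 biogenesis and turnover were higher and 9 lower, beside 40.3% and 38.6% of all tested genes, with a median log2 fold change of -0.087, which became 0.016 with upper quartile factors and 0.038 with library totals. Trim71, a let-7 target and ubiquitin ligase of early development, averaged 44.6 ± 1.15 CPM in undifferentiated cells and 17.3 ± 1.65 CPM in dexamethasone. It fell 2.59-fold (edgeR adjusted p = 1.39e-13). Khsrp, which promotes let-7 processing, fell 1.81-fold. Trim25, a cofactor of uridylation with Lin28a, rose 1.73-fold, and Tnrc6c, a partner of the Argonaute proteins, rose 1.70-fold. Tut4 and Tut7 add the uridine tail. Tut4 averaged 104 ± 10.6 and 102 ± 7.78 CPM and was not called (edgeR adjusted p = 0.748), and Tut7 rose from 40.5 ± 2.29 to 54.1 ± 2.79 CPM. Dis3l2, the nuclease that destroys tailed precursors, fell from 22.3 ± 1.83 to 15.5 ± 2.29 CPM. Drosha and Dicer1, which cut the precursors, fell 1.40-fold and 1.65-fold. Dgcr8, the partner of Drosha, had 0 reads in all 6 libraries.

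Mature let-7 was not measured, since these were mRNA libraries. The 12 let-7 hairpin genes counted had 0 reads. Of their host genes, Huwe1 fell 1.28-fold and Wdr82 fell 1.21-fold, and Mir99ahg had 5 and 6 reads in the groups. Host mRNA levels do not give the level of a microRNA.

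Among other let-7 target genes, 9 of 24 tested were higher and 14 lower (10 and 13 with upper quartile factors or library totals), beside 40.3% and 38.6% of all tested genes, with a median log2 fold change of -0.45 beside 0.017 over all tested genes. Mycn, a transcription factor of neural progenitors, averaged 163 ± 9.72 CPM in undifferentiated cells and 29.9 ± 1.17 CPM in dexamethasone and fell 5.48-fold (edgeR adjusted p = 4.34e-22). Cdc25a, a phosphatase that starts S phase, fell 3.10-fold. Ccnd2, a G1 cyclin, rose 2.09-fold and Insr, the insulin receptor, rose 2.39-fold. Il6, a cytokine, rose 7.29-fold from 0.648 ± 0.215 CPM, the largest rise of the list.

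Let-7 seed matches were also counted in all tested genes with an annotated 3′ UTR. Of 150 tested genes with 2 or more matches, 48 were lower and 66 higher, with a median log2 fold change of 0.14. Of 10160 with no match, 4000 were lower (39.4%) and 4230 higher, with a median of 0.028. Genes with more matches have longer 3′ UTRs, and 1860 genes with no match and a 3′ UTR of like length had a median of 0.19, with 31.4% lower. The median of genes with 2 or more matches was thus above that of all genes with no match and below that of genes with no match and like length. These medians are descriptions, since genes are not independent replicates.

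**Figure D4:**
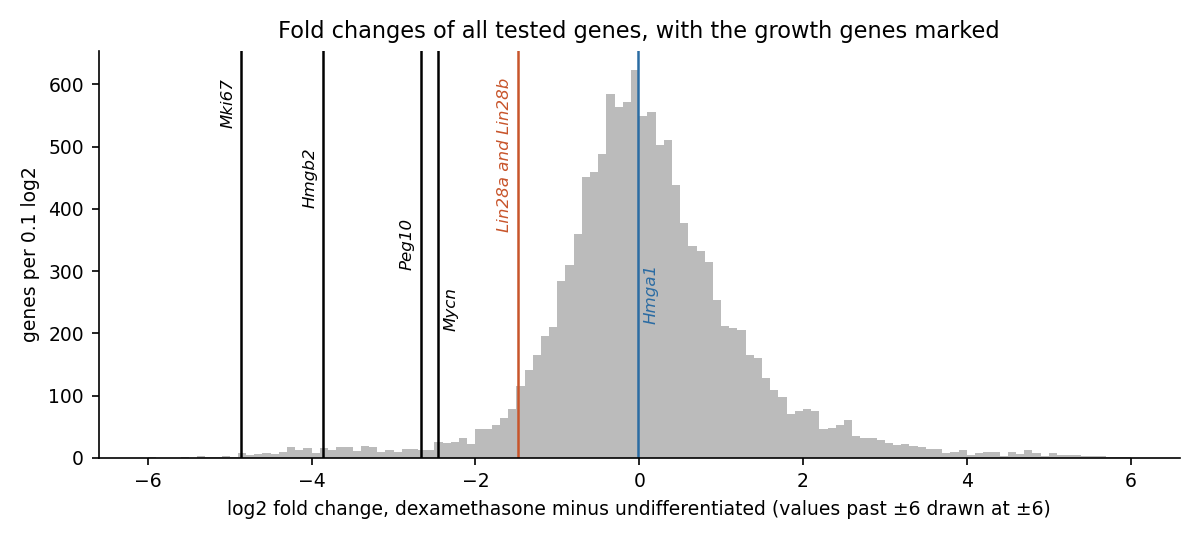
Number of tested genes (y axis) per 0.1 of log2 fold change, dexamethasone minus undifferentiated (x axis), for all 12664 tested genes. Lin28a and Lin28b are marked at -1.48 and Hmga1 at -0.011 (0.11 with library totals), with Mycn, Peg10, Hmgb2 and Mki67 further to the left for scale.

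Igf2 mRNA gave the Igf2bp family its name, and its growth pathway was examined next. In the insulin-like growth factor axis, 7 of 10 tested genes were higher and 3 lower (background 40.3% and 38.6%), with a median log2 fold change of 0.77. Igf1 and Igf2, the ligands, had 0 reads in every library. Insr averaged 25.7 ± 2.64 and 61.3 ± 1.73 CPM, and the receptor Igf1r 42.7 ± 2.09 and 87.4 ± 2.36 CPM, both higher in dexamethasone (edgeR adjusted p = 9.98e-14 and 1.06e-13). Among the binding proteins, Igfbp4 rose 2.44-fold, Igfbp5 fell 5.50-fold and Igfbp7 fell 3.13-fold. Receptors and binding proteins were thus present without reads for either ligand.

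Of the imprinted fetal growth genes, 1 of 6 tested was higher and 4 were lower (3 with library totals), where 40.3% of all tested genes were higher and 38.6% lower. Peg10, a retrotransposon-derived gene of the placenta, averaged 903 ± 43.3 and 142 ± 12.8 CPM and fell 6.35-fold (edgeR adjusted p = 4.19e-24). Mest fell 1.94-fold from 2350.1 ± 33.1 CPM. Igf2r, which clears IGF2, rose 1.74-fold. The list of pluripotency and other oncofetal genes had 2 tested of 14, and Peg10 alone was called, lower, with Sall4 also called, higher, under upper quartile factors or library totals. Sox2, Klf4 and Zfp42 had 0 reads, so Lin28a and Lin28b were expressed with few other genes of that list.

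Most other high mobility group genes were lower, 8 of 11 tested against 1 higher (background 38.6% and 40.3%), with a median log2 fold change of -1.51. The difference between Hmga1 and this list was not tested. Hmgb2, a DNA-bending protein of dividing cells, averaged 707 ± 21.1 and 49.0 ± 4.36 CPM and fell 14.5-fold (edgeR adjusted p = 7.43e-27). Hmgn1, a nucleosome-binding protein, fell 3.63-fold. Markers of proliferating cells moved with this list and with the Lin28 genes. Mki67 averaged 618 ± 22.0 and 21.3 ± 2.74 CPM, a fall of 29.0-fold, and Top2a fell 21.3-fold. The part of cell division in the fall of the Lin28 genes was not tested.

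Although the Igf2bp mRNAs were near 0, the genes of their partner proteins were expressed. Of 11 tested, 10 were lower (9 with upper quartile factors or library totals) and 1 higher, beside 38.6% and 40.3% of all tested genes, with a median log2 fold change of -0.87. Ybx1, a cold-shock RNA-binding protein, fell 2.74-fold from 1108 ± 24.5 CPM and the RNA helicase Dhx9 fell 2.34-fold. Stau1, which carries mRNAs along dendrites, rose from 133 ± 3.43 to 166 ± 9.92 CPM. Of 6 tested mRNAs known to be bound by Igf2bp proteins, 4 were higher and 2 lower (background 40.3% and 38.6%). Actb fell 3.24-fold and Cd44 fell 1.74-fold, and Btrc rose 2.55-fold and Mapt, which encodes tau, rose 2.67-fold.

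The Igf2bp proteins also read N6-methyladenosine (m6A), a methyl mark on mRNA. Of 15 tested writers, erasers and other readers of the mark, 1 was higher (2 with library totals) and 9 lower (8 with upper quartile factors or library totals), beside 40.3% and 38.6% of all tested genes, with a median log2 fold change of -0.30. Rbm15, a writer subunit, fell 2.68-fold, and the reader Ythdf1 fell from 190 ± 2.46 to 119 ± 5.27 CPM. Fto, an eraser, rose 1.23-fold.

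**Figure D5:**
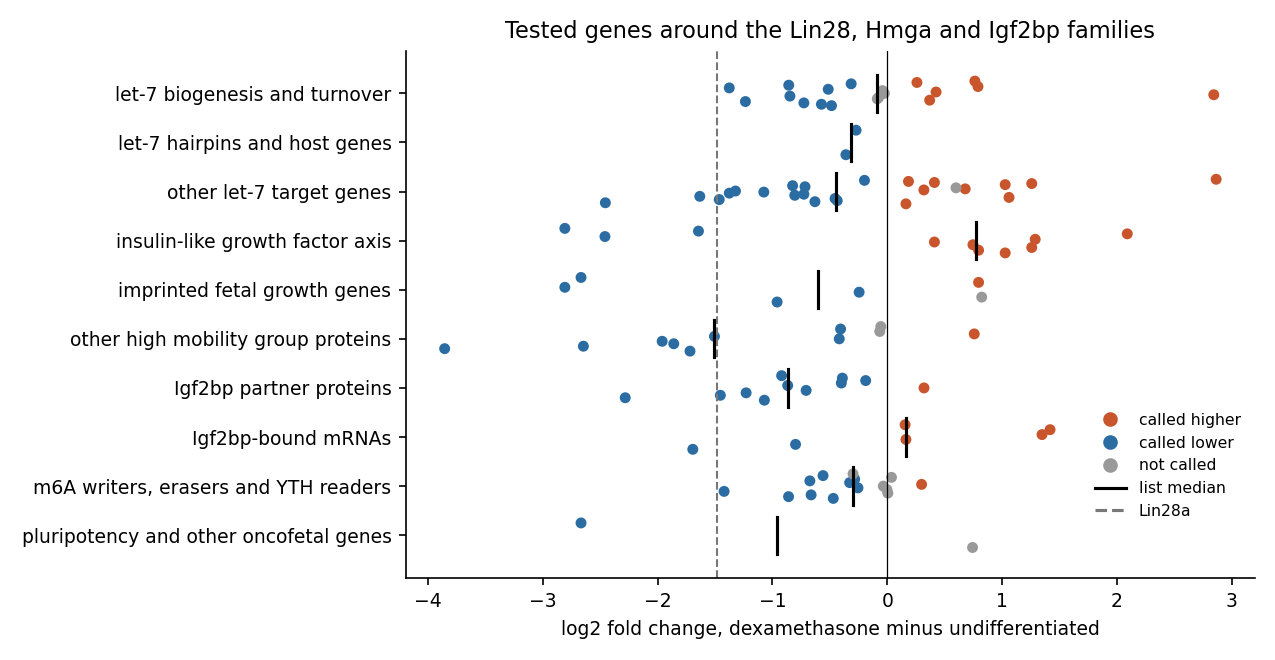
Log2 fold change, dexamethasone minus undifferentiated (x axis), of each tested gene of 10 lists (y axis), coloured by its call, with list medians as black bars and the value of Lin28a as a dashed line. The median of high mobility group genes is nearest the Lin28a line at -1.51, the insulin-like growth factor axis lies to the right at 0.77, and let-7 biogenesis lies near 0 at -0.087 (0.038 with library totals).

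The levels of markers of other cell types were as follows. The 9 fibroblast markers summed to 10.1 to 14.6 CPM in undifferentiated libraries and 24.2 to 26.7 CPM in dexamethasone, with 3 of 4 tested genes higher (background 40.3%). Dcn, the highest of them, averaged 17.6 ± 0.896 CPM in dexamethasone, and Col3a1 and Postn had 0 reads. The 7 endothelial, microglial and blood markers summed to 18.2 to 20.8 and 33.3 to 35.6 CPM, with the 1 tested gene, Pecam1, higher at 33.1 ± 0.882 CPM in dexamethasone. Pecam1 and Dcn were thus above Dbh and Th in dexamethasone. The part of such cells in the results was not tested. Ptprc, Cx3cr1 and the haemoglobin genes had 0 reads. Astrocyte markers summed to at most 5.36 CPM and oligodendrocyte and Schwann cell markers to at most 4.36 CPM, with Mog, Mag and Sox10 at 0.

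The promoters of the Lin28 genes are shown because both genes fell together. Each line gives 250 bases before and 50 after the RefSeq start on GRCm38.p6, on the minus strand, at chr4:134018767-134019066 for Lin28a and chr10:45470152-45470451 for Lin28b. The Lin28b window lies inside the gene as Ensembl draws it, which begins further upstream. The letters searched, on both strands, were the E-box CACGTG (bound by Myc family proteins), the GC box GGGCGG, the TATA box TATAAA and the glucocorticoid half-site AGAACA, and matches are in capitals.
Lin28a promoter: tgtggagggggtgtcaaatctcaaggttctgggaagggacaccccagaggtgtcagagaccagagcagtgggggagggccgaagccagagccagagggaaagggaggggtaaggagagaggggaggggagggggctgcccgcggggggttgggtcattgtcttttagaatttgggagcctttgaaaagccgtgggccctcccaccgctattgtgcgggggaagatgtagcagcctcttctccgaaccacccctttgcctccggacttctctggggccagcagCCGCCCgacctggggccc
Lin28b promoter: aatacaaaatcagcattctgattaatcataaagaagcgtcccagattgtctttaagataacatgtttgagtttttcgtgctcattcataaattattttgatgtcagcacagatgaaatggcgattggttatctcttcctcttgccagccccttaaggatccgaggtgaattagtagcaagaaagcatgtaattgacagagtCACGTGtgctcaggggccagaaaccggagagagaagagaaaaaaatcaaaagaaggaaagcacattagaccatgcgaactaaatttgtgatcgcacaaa

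Lin28a held 1 GC box and Lin28b 1 E-box, and no motif was common to both windows. Of 32841 promoters in the table, 35.7% held the GC box and 7.15% the E-box. The half-site, held by 18.98% of promoters, and the TATA box, held by 13.6%, were in neither window. GC content was 63.3% for Lin28a and 39.0% for Lin28b, beside a median of 52.7%. The ratio of observed to expected CpG, which is high in CpG islands, was 0.351 for Lin28a and 0.708 for Lin28b, beside a median of 0.384. It was 0.544 for Hmga2, 1.09 for Igf2bp2 and 0.982 for Igf2bp3, which had at most 2 reads in a group, and 0.975 for the first of the 2 Hmga1 starts. The silent Igf2bp2 and Igf2bp3 thus had CpG-rich promoters as Hmga1 did, and Igf2bp3 held 2 E-boxes.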

How the data were processed

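One table per library was used, 3 per group. The authors deposited raw counts per gene, made with featureCounts 1.6.4 over Ensembl release 96 exons with strand setting 1 and no multi-mapping reads, per the file headers. Trim Galore 0.6.4, HISAT2 2.2.0 and GRCm38.p6 are named in the lists of tools and builds, per the submitters' processing notes. Symbols came from GENCODE M21, which named all 55536 genes. Genes passed edgeR's filterByExpr (minimum count 10, minimum total 15) and were tested with edgeR 4.0.16 in R 4.3.3 (TMM factors, glmQLFit, glmQLFTest, group as the only term), with Benjamini-Hochberg adjustment over 12664 genes; the common biological coefficient of variation was 4.41%. RPKM used annotated exon length. Tested on simulated data over 12664 genes, the test recovered 58% of genes changed 1.25-fold, 78% at 1.5-fold, 100% at 2-fold and 96% at 4-fold. The simulation changed 200 genes, equally up and down, with the same dispersion for all genes. In the data 78.9% of genes were called, so these rates need not hold there. Replicates differed beyond sampling noise (chi-square over its degrees of freedom was 1.65 to 3.19), so none was treated as a copy.

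The members and lists were chosen with earlier results of these data known. Genes named were all members, the 2 genes nearest each member, and Mki67, Top2a, Th and Dbh. Up to 2 called genes per list and direction, with the smallest adjusted p, were also named. Others, such as Tut4, Tut7, Dis3l2, Drosha, Dicer1, Dgcr8, Igf1r, Il6, Ddc, Slc18a1, Slc18a2, Sall4 and genes without reads, were named with values known. Some genes that the rule takes are not reported here. Shares within the Igf2bp family were not computed, since no library held more than 1 read of a member. Alternatives were other scalings, filters, DESeq2 1.42.0, limma voom (limma 3.58.1), a test against a fold of 2, a replicate block, each library left out and, chosen after seeing the data, Hmga1 and Hmga1b summed.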

Additional observations from a re-analysis of the deposited data

How the results depend on the processing

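The count of growth genes called, 2 lower and 0 higher, was the same under all 16 alternatives. Lin28a ranged from -1.53 to -1.36 on the log2 scale (adjusted p 3.04e-51 to 4.92e-06) and Lin28b from -1.54 to -1.35 (3.55e-85 to 2.46e-07). Hmga1 was never called, and its sign turned: its log2 fold change was 0.091 with upper quartile factors (edgeR adjusted p = 0.308), 0.11 with library totals (0.212), 0.0099 with no filter (0.943) and -0.066 to 0.057 with a library left out, and -0.0082 with Hmga1b reads added, chosen after seeing the data. Library totals shifted the median of all genes by 0.125 and upper quartile factors by 0.102 on the log2 scale, with 5802 higher and 4207 lower calls and 5692 and 4334. The Lin28b share differed by -1.46 to 2.18 percentage points with a library left out. A test against a fold of 2 called 1684 genes higher and 1130 lower. Same-numbered replicates did not deviate together (correlations -0.095 to 0.036), so no pairing by number was seen. With 3 libraries per group this cannot show that same-numbered samples were handled apart. With the replicate number as a block, Lin28a was at -1.48, Lin28b at -1.47 and Hmga1 at -0.0087, the Lin28b share differed by 0.310 percentage points (exact permutation p = 1.0), and 5017 genes were higher and 4803 lower. Depth limits Hmga2 and the Igf2bp genes, where a change below 3 reads per group could not be seen. With 3 libraries per group, leaving 1 out rests on 2.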

Other observations

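Dgcr8, the let-7 processing gene with no reads, lay in a run of 11 neighbouring protein-coding genes with no read in any of the 6 libraries, from Vpreb2 to Tango2 on chr16:17980428-18348103 of GRCm38. The run was singled out after its values were seen. It includes Ranbp1, a cofactor of nuclear transport, Trmt2a, a tRNA methyltransferase, and Zdhhc8, a palmitoyltransferase. On either side of the run, Slc25a1 had 6786 reads over the 6 libraries, Ess2 1623 and Gnb1l 459. Of the stretches of 75 bases in Dgcr8 exons, 12.9% occur in another gene, with 9.43% in Trmt2a, which overlaps Dgcr8 on the other strand. Genomic DNA of these cells was not measured, and the cause was not tested.

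Hnrnpu, an Igf2bp partner, was the least even gene of its list among undifferentiated libraries, with 8.93 to 35.9 CPM against 4.11 ± 0.817 CPM (SD, n = 3) in dexamethasone (edgeR adjusted p = 3.86e-07). It was noticed after its values were seen.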
